A study of Danio rerio with 6 samples.

Results

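The genes that build ribosomes in the nucleolus were followed in early zebrafish embryonic cells that carried too much Wnt/β-catenin activity, either as scattered single cells or throughout the embryo. Members were chosen by gene symbol alone: any symbol that starts with *nop*, *nol*, *utp*, *rrp* or *polr1*, together with a list of named nucleolar genes (*dkc1*, *fbl*, *ncl*, *npm1a*, *gar1*, *nhp2*, *imp4*, *bysl*, *bop1*, *pes1*, *wdr12*, *wdr43*, *ebna1bp2*, *gnl2*, *gnl3*, *mphosph10* and *nip7*). Of 14132 genes not listed at 0 in every library, 58 were members, and 49 of these were abundant enough to test, among 3905 genes tested in all. The symbols *imp3*, *npm1* and *pes* matched no row and were not analysed here.

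‘Mosaic’ cells were GFP+ cells sorted from embryos injected with a plasmid in which the *hsp70l* heat-shock promoter drives GFP and β-catCA, a constitutively active form of β-catenin, in a few scattered cells. ‘Ubiquitous’ cells were GFP+ cells from embryos of the HS:GFP-2A-β-catCA transgenic line, in which heat shock turns on the same protein throughout the embryo. ‘Uninjected’ cells came from embryos without plasmid or transgene. Each group had 2 libraries, labelled as lots 1 and 2, and all embryos were of the AB strain, labelled as 9 h post fertilization (hpf), whereas the methods place the dissociation somewhat earlier. Embryos were pooled before sorting, plasmid copy number is hard to control by this method, and the sources used here do not say whether ‘Uninjected’ embryos received the heat shock. The plasmid injection and the mosaic state cannot be told apart in ‘Mosaic’ cells.

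A ribosome begins in the nucleolus, where RNA polymerase I transcribes ribosomal DNA into a long precursor RNA. Small nucleolar RNA-protein particles (snoRNPs) then modify the precursor: box C/D particles methylate riboses, and box H/ACA particles turn uridines into pseudouridines. The small subunit processome folds and cleaves the part that becomes the 40S subunit, while a different set of factors assembles the 60S subunit. In the early embryo these genes serve fast cell division, and many of them are known targets of Myc, itself a Wnt/β-catenin target. The paper reports from this RNA-Seq that the short heat-shock activation did not raise *Myc* expression.

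The deposited values were regularized logarithms (rlog, log2 scale), in which a count is scaled for library size and pulled toward the gene's mean over all libraries, the more so the fewer its counts. Differences below are differences of group means of these values and understate changes of genes with few counts. Counts inferred by inverting the transformation are given beside them, and “normalised count” means an inferred count divided by its library's size factor. The inferred totals ranged from 34540 (second ‘Ubiquitous’ library) to 489311 (second ‘Uninjected’ library), a 14.2-fold range, and the first ‘Uninjected’ library was also shallow, at 58352. Of the 49 genes tested, 3 had no count in the second ‘Ubiquitous’ library (*ebna1bp2*, *utp4* and *wdr12*). In the first ‘Uninjected’ library 3 had none (*gnl3*, *nol11* and *wdr12*). None lacked a count in the other 4 libraries. Because labels name lots and not separate clutches, p-values measure the spread between these libraries, which may be partly technical. Early embryonic markers (6 of 6 had a count, *pou5f3* and *nanog* among the list) took 0.208 and 0.342% of counts in ‘Mosaic’, against 0.337 and 0.174% in ‘Ubiquitous’ and 0.218 and 0.328% in ‘Uninjected’ libraries.

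The 49 genes abundant enough to test had higher mean values over all 6 libraries than the genes tested in general. Their median mean rlog was 4.39, against 3.62 over all genes tested, and 35 of 49 (71.4%) lay above the median of all genes. The 58 genes together held 1.40 and 1.27% of counts in ‘Mosaic’, against 1.44 and 1.26% in ‘Ubiquitous’ and 1.26 and 1.58% in ‘Uninjected’ libraries. The 2 ‘Uninjected’ libraries differed from each other beyond counting error, with 95% Wilson intervals of 1.17 to 1.36% and 1.55 to 1.62%, and both ‘Mosaic’ values lay between them. These intervals cover counting error only.

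**Figure D1:**
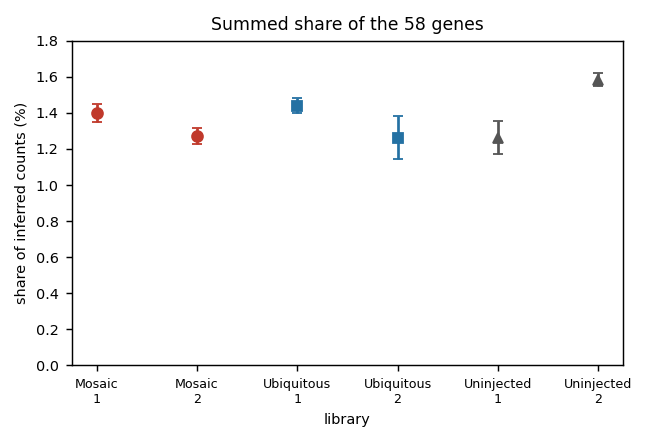
Share of each library's inferred counts held by the 58 genes (y axis, percent, from 0) in the 6 libraries (x axis). Bars are 95% Wilson intervals. The ‘Mosaic’ libraries, at 1.40 and 1.27%, lie within the range of the other 4, from 1.26 to 1.58%.

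The 5 genes with the highest mean rlog were *ncl* (8.23), *dkc1* (7.78), *fbl* (7.66), *nop56* (6.64) and *nop58* (6.46). They supplied 39.0 to 46.7% of all counts of the 58 genes in each library. CEL-Seq2 counts one tag at the 3′ end of each transcript, so these levels are not divided by gene length.

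**Figure D2:**
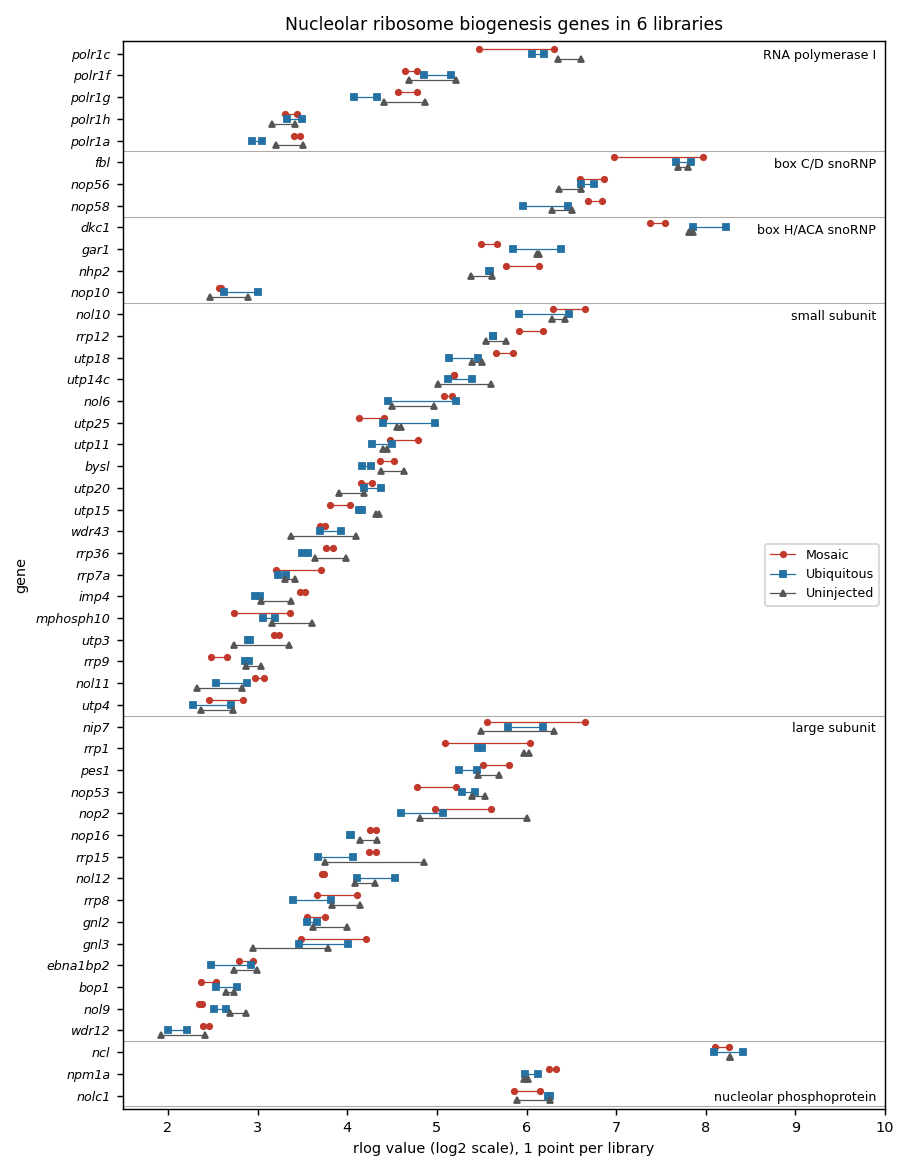
The rlog value (x axis, log2 scale) of each of the 49 genes tested (y axis, by role and then by mean level), with 1 point per library and a line joining the 2 libraries of a group. Both ‘Mosaic’ points of *dkc1* (7.37 and 7.54) lie left of its other 4 points, which run from 7.81 to 8.22.

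Between ‘Mosaic’ and ‘Ubiquitous’ cells, none of the 49 genes passed limma's test at an adjusted p-value under 0.1, the false discovery rate threshold used in the study, against 1.33% of all genes tested. At an unadjusted p-value under 0.05, 5 of 49 genes stood out in limma (10.2%), against 13.0% of all genes. In voom on inferred counts 4 did, which is given without a share over all genes and does not set the members apart. The difference was positive for 29 (59.2%, against 56.7% of all genes) and negative for 20, with a median of 0.11 beside 0.05 over all genes. Both ‘Mosaic’ libraries lay above both ‘Ubiquitous’ libraries for 16 genes (32.7%, against 28.1% of all genes) and below them for 10 (20.4%, against 18.5%). Single differences ran from -0.59 for *nol12* to 0.55 for *nop58*. The standard errors, from 0.20 to 0.32, gave 95% intervals of 0.42 to 0.68 to either side of each difference.

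The pattern within the box H/ACA particle was uneven. Dyskerin, encoded by *dkc1* (ENSDARG00000016484), is the pseudouridine synthase of the particle and also a part of telomerase. It had 213 and 267 inferred counts in ‘Mosaic’, against 708 and 51 in ‘Ubiquitous’ and 82 and 752 in ‘Uninjected’ libraries. After division by size factors these were 156 and 180 in ‘Mosaic’, against 317 and 236 in ‘Ubiquitous’ and 234 and 225 in ‘Uninjected’. Both ‘Mosaic’ values lay below the other 4. The 95% interval of the ‘Mosaic’ minus ‘Ubiquitous’ difference, whose estimate was -0.58, ran from -1.08 to -0.09 (adjusted p = 0.299, limma). From ‘Uninjected’ the difference was -0.37, with an interval from -0.87 to 0.12. ‘Ubiquitous’ minus ‘Uninjected’ was 0.21 for *dkc1*, and 0.03 without the first ‘Ubiquitous’ library.

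The partner *gar1* (ENSDARG00000076526), whose protein binds dyskerin, also had its lowest values in ‘Mosaic’. Its normalised counts were 47.6 and 40.5 in ‘Mosaic’, against 91.3 and 55.5 in ‘Ubiquitous’ and 74.2 and 71.9 in ‘Uninjected’ libraries. ‘Mosaic’ again lay below the other 4. For *gar1*, the 55.5 and the 74.2 rest on 12 and 26 counts in the shallow libraries. Its difference was -0.54 from ‘Ubiquitous’ (95% interval -1.04 to -0.04, adjusted p = 0.341, limma) and -0.55 from ‘Uninjected’ (-1.05 to -0.05, adjusted p = 0.385, limma). An alternative without the 2 shallow libraries, chosen after seeing the data, leaves 1 ‘Ubiquitous’ and 1 ‘Uninjected’ library, so differences alone are given. There the ‘Mosaic’ minus ‘Ubiquitous’ differences were -0.77 for *dkc1* and -0.81 for *gar1*. Without the first ‘Ubiquitous’ library instead, they were -0.40 for *dkc1* and -0.27 for *gar1*.

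The other 2 genes of the particle differed from this pattern in 1 or both comparisons. *nhp2*, which binds the RNA scaffold, had normalised counts of 77.7 and 56.0 in ‘Mosaic’, against 47.0 and 46.3 in ‘Ubiquitous’ and 37.1 and 48.5 in ‘Uninjected’ libraries. Here ‘Mosaic’ lay above the other 4, with differences of 0.37 from ‘Ubiquitous’ (95% interval -0.11 to 0.85) and 0.45 from ‘Uninjected’ (-0.03 to 0.94), neither of which passed. *nop10*, a small protein that binds dyskerin, had normalised counts of 5.13 and 5.40 in ‘Mosaic’, against 5.82 and 13.9 in ‘Ubiquitous’ and 2.85 and 8.69 in ‘Uninjected’ libraries. Its ‘Mosaic’ values lay below both ‘Ubiquitous’ values, with a difference of -0.24, and between the ‘Uninjected’ values. The 13.9 and the 2.85 rest on 3 counts and 1 count in the shallow libraries. From ‘Ubiquitous’, 3 of the 4 genes of the particle thus had a negative difference, while 56.7% of all genes had a positive one. The median of the 4 was -0.39. With 4 genes this is a description only.

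A ratio of 2 genes within a library does not depend on how libraries are scaled. The pair of *dkc1* and *nhp2* was chosen after its values were seen. In ‘Mosaic’ *dkc1* lay below and *nhp2* above the other 4 libraries, so a low ratio there followed from the choice. It is a description and adds no support. There were 2.01 *dkc1* counts per *nhp2* count in the first ‘Mosaic’ library (95% exact counting interval 1.58 to 2.56) and 3.22 in the second (2.51 to 4.17). The ratio was 6.74 and 5.10 in ‘Ubiquitous’ and 6.31 and 4.64 in ‘Uninjected’ libraries. Its interval was 3.91 to 5.54 in the deepest ‘Uninjected’ library, 3.49 to 12.35 in the other, and 2.56 to 11.27 in the second ‘Ubiquitous’ library. All of these overlap the second ‘Mosaic’ interval, and the last also touches the first ‘Mosaic’ interval. The interval of the first ‘Ubiquitous’ library, 5.49 to 8.36, overlaps neither. The ratio of *dkc1* to *gar1* was 3.28 and 4.45 in ‘Mosaic’, against 3.47 and 4.25 in ‘Ubiquitous’ and 3.15 and 3.13 in ‘Uninjected’ libraries, with ‘Mosaic’ and ‘Ubiquitous’ values overlapping.

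The mesoderm and endoderm markers (8 of 8 with a count, among them *tbxta* and *sox32*) also held a smaller share of counts in ‘Mosaic’, at 0.0985 and 0.113%, than in ‘Ubiquitous’ (0.294 and 0.313%) or ‘Uninjected’ libraries (0.305 and 0.186%). Enveloping layer markers held 0.254 and 0.187% in ‘Mosaic’, against 0.142 and 0.0984% in ‘Ubiquitous’ and 0.163 and 0.341% in ‘Uninjected’. The part of such differences in cell makeup in the *dkc1* and *gar1* values was not tested. In bulk samples, fewer cells of a type and less RNA per cell cannot be told apart.

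**Figure D3:**
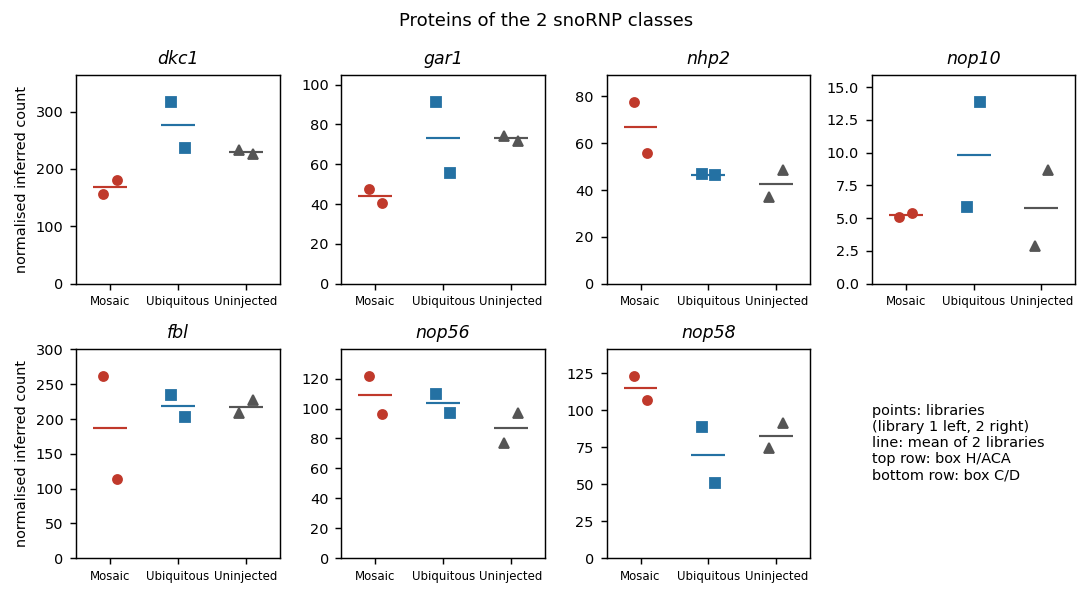
Normalised inferred counts (y axes, each from 0) of the box H/ACA genes (top row) and box C/D genes (bottom row) in each library, with a line at the mean of the 2 libraries of a group. Both ‘Mosaic’ libraries lie below the other 4 for *dkc1* and *gar1* and above them for *nhp2* and *nop58*.

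The box C/D genes gave no common direction. *nop58*, a core scaffold protein, had normalised counts of 123 and 107 in ‘Mosaic’, against 88.7 and 50.9 in ‘Ubiquitous’ and 74.2 and 91.7 in ‘Uninjected’ libraries, so that ‘Mosaic’ lay above the other 4. Its difference was 0.55 from ‘Ubiquitous’ (95% interval 0.05 to 1.06, adjusted p = 0.337, limma) and 0.37 from ‘Uninjected’. The first was 0.30 without the second ‘Ubiquitous’ library, where the value of 50.9 rests on 11 counts. *nop56*, its partner, had ‘Mosaic’ differences of 0.05 from ‘Ubiquitous’ and 0.25 from ‘Uninjected’, and ‘Ubiquitous’ minus ‘Uninjected’ was 0.19. *fbl*, the methyltransferase fibrillarin, had normalised counts of 262 and 113 in ‘Mosaic’, against 235 and 204 in ‘Ubiquitous’ and 208 and 228 in ‘Uninjected’ libraries. The 2 ‘Mosaic’ libraries thus held the highest and the lowest value of the 6.

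Of 8 RNA polymerase I genes, 5 were tested, and *polr1c*, a subunit shared with RNA polymerase III, was the one with the most counts. Its normalised counts were 81.4 and 37.8 in ‘Mosaic’, against 65.4 and 74.0 in ‘Ubiquitous’ and 85.6 and 105 in ‘Uninjected’ libraries. The ‘Mosaic’ minus ‘Uninjected’ difference was -0.59 (95% interval -1.14 to -0.04, adjusted p = 0.405, limma), and it was -0.17 without the second ‘Mosaic’ library and -1.01 without the first. The largest subunit, *polr1a*, had 16 and 19 counts in ‘Mosaic’, against 13 and 1 in ‘Ubiquitous’ and 3 and 44 in ‘Uninjected’ libraries, with differences of 0.44 from ‘Ubiquitous’ and 0.08 from ‘Uninjected’. *polr1g*, which encodes a further subunit, differed by 0.47 from ‘Ubiquitous’ and by 0.03 from ‘Uninjected’. Between ‘Ubiquitous’ and ‘Uninjected’ cells, *polr1g* (-0.44), *polr1a* (-0.36) and *polr1c* (-0.35) had negative differences, while those of *polr1f* (0.06) and *polr1h* (0.13) were positive. Without the second ‘Uninjected’ library that of *polr1g* was -0.21. None of these passed.

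The small subunit genes formed the largest group, with 19 of 22 tested. Between ‘Mosaic’ and ‘Ubiquitous’, 12 of the 19 had a positive difference (against 56.7% of all genes), with a median of 0.23. *imp4*, which helps pair the U3 RNA with the precursor, had the highest at 0.50 (95% interval 0.03 to 0.98, adjusted p = 0.357, limma), from 18 and 21 counts in ‘Mosaic’, against 14 and 1 in ‘Ubiquitous’ and 2 and 38 in ‘Uninjected’ libraries. *utp18* (0.46) and *rrp12* (0.42), the second known for a role in export of the pre-40S particle, came next. For *imp4*, *utp18*, *rrp12* and *nol11*, both ‘Mosaic’ libraries lay above the other 4. At the other end, *utp25* differed by -0.41 from ‘Ubiquitous’, and *rrp9*, a U3-specific protein, by -0.31. Without the second ‘Ubiquitous’ library, where *utp25* had 9 counts, its difference was -0.12, and that of *utp18* was 0.30. Against ‘Uninjected’ the median was 0.09, with 11 of 19 positive (against 53.3% of all genes). The highest were *nol11* (0.44), *nol6* (0.39) and *rrp12* (0.39). *nol11* had no count in the first ‘Uninjected’ library, which allows a share of up to 0.00514% of counts there. Without that library the differences were 0.19 for *nol11* and 0.155 for *nol6*, and that of *rrp12* was 0.25 without the first ‘Mosaic’ library. Between ‘Ubiquitous’ and ‘Uninjected’, 5 of 19 were positive (against 45.0% of all genes), with a median of -0.08. *utp20*, a processome protein, had the highest at 0.24, and 0.09 without the first ‘Uninjected’ library.

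Of 16 large subunit genes, 15 were tested. *nol12* (ENSDARG00000038027), an RNA-binding nucleolar protein, had the largest negative difference of the 49 genes between ‘Mosaic’ and ‘Ubiquitous’, at -0.59 (95% interval -1.09 to -0.10, adjusted p = 0.285, limma). Its normalised counts were 11.0 and 10.8 in ‘Mosaic’, against 17.5 and 32.4 in ‘Ubiquitous’ and 17.1 and 21.6 in ‘Uninjected’ libraries, with ‘Mosaic’ below the other 4. The value of 32.4 rests on 7 counts in the shallowest library, without which the difference from ‘Ubiquitous’ was -0.38. From ‘Uninjected’ it was -0.47. *nop53*, which recruits the exosome helicase in yeast, had differences of -0.36 from ‘Ubiquitous’ and -0.47 from ‘Uninjected’, and its ‘Mosaic’ values also lay below the other 4. Without the first ‘Mosaic’ library these were -0.14 and -0.25.

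Single libraries set several of the other large subunit differences. *nop2*, a methyltransferase of the large ribosomal RNA, had normalised counts of 54.2 and 29.7 in ‘Mosaic’, against 32.7 and 13.9 in ‘Ubiquitous’ and 22.8 and 77.0 in ‘Uninjected’ libraries. The first and second ‘Uninjected’ libraries thus stood at opposite sides of both ‘Mosaic’ values. ‘Mosaic’ minus ‘Ubiquitous’ was 0.46, and 0.14 without the first ‘Mosaic’ library. Its ‘Ubiquitous’ minus ‘Uninjected’ difference of -0.57 was the most negative in that comparison (95% interval -1.25 to 0.11), and it became 0.03 without the second ‘Uninjected’ library. *rrp1* (-0.52), *rrp15* (-0.43) and *rrp8* (-0.38) followed among the large subunit genes in the same comparison. Without the second ‘Uninjected’ library *rrp15* became 0.11, and without the first ‘Ubiquitous’ library *rrp8* became -0.17. The ‘Mosaic’ minus ‘Uninjected’ difference of *rrp1* was -0.44, and 0.04 without the second ‘Mosaic’ library. *gnl3*, the nucleostemin gene, had the highest difference there (0.37) and between ‘Mosaic’ and ‘Uninjected’ (0.48), from 33 and 15 counts in ‘Mosaic’, against 22 and 5 in ‘Ubiquitous’ and 0 and 49 in ‘Uninjected’ libraries. Without the first ‘Uninjected’ library these became -0.05 for ‘Ubiquitous’ and 0.07 for ‘Mosaic’. The PeBoW complex, which processes the precursor of the large subunit RNAs, was represented by *pes1*, *bop1* and *wdr12*. Their ‘Mosaic’ minus ‘Ubiquitous’ differences were 0.31, -0.20 and 0.32. In the second ‘Ubiquitous’ library, the shallowest, these rest on 7, 1 and 0 counts in the same order.

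The 3 nucleolar phosphoprotein genes were all tested. *ncl*, which encodes nucleolin, a chaperone of the precursor RNA, had normalised counts of 269 and 306 in ‘Mosaic’, against 267 and 352 in ‘Ubiquitous’ and 311 and 310 in ‘Uninjected’ libraries. Its difference was -0.08 from ‘Ubiquitous’ (95% interval -0.58 to 0.42) and -0.10 from ‘Uninjected’ (-0.59 to 0.40), which leaves room for changes of up to about 0.59 in size. The first turned sign as single libraries were left out, from -0.24 to 0.09. *npm1a*, a nucleophosmin gene, had 84.3 and 78.2 in ‘Mosaic’, against 69.8 and 60.1 in ‘Ubiquitous’ and 59.9 and 63.5 in ‘Uninjected’ libraries, with ‘Mosaic’ above the other 4. *nolc1*, which binds both snoRNP classes, had ‘Mosaic’ differences of -0.25 from ‘Ubiquitous’ and -0.07 from ‘Uninjected’, and ‘Ubiquitous’ minus ‘Uninjected’ was 0.17.

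**Figure D4:**
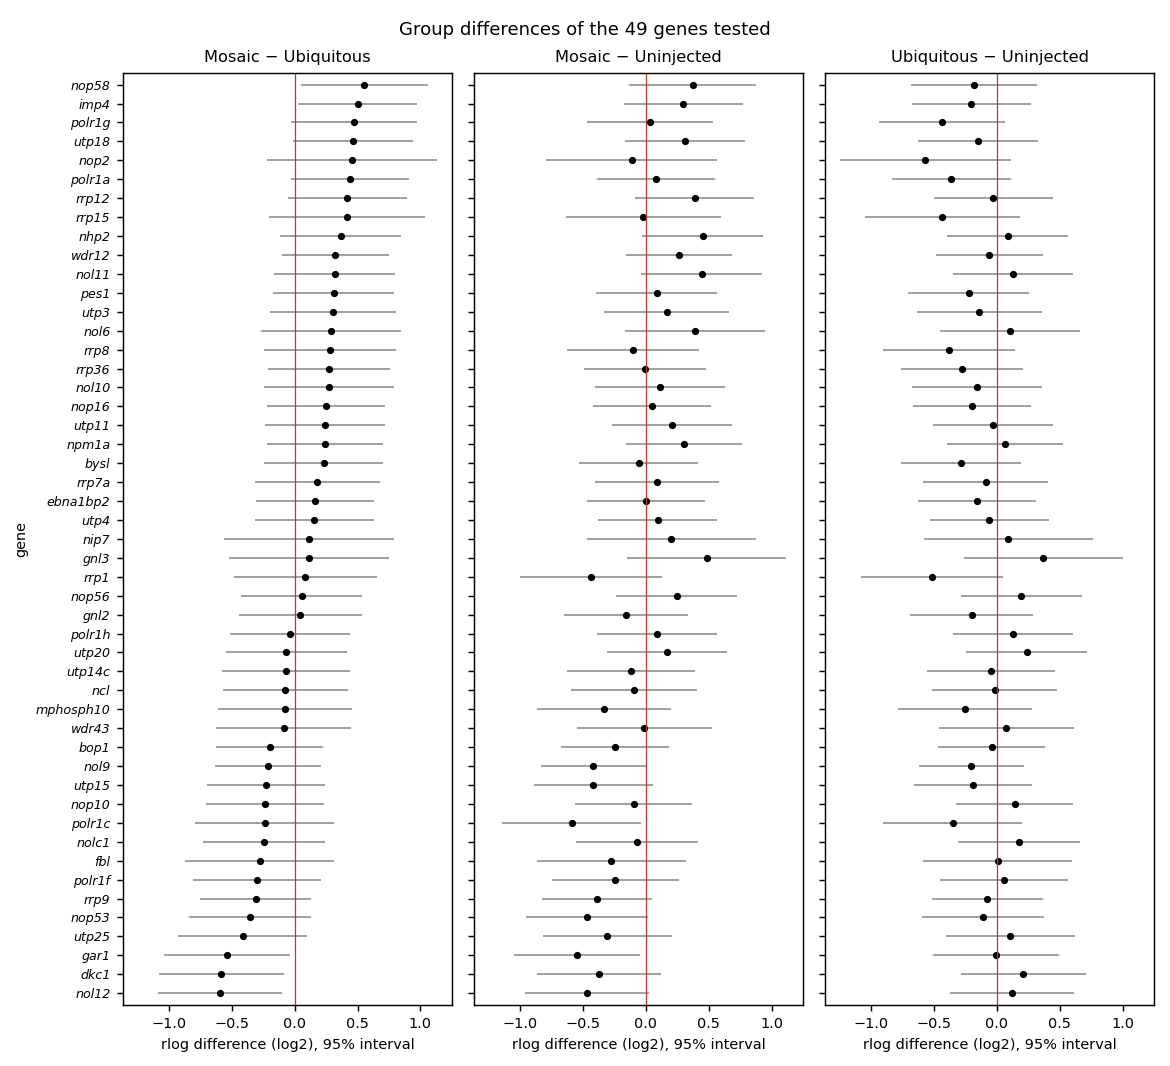
Differences of group means (x axes, rlog units on the log2 scale) with 95% intervals for the 49 genes tested (y axis, ordered by the ‘Mosaic’ minus ‘Ubiquitous’ difference). None passed in any of the 3 comparisons, and the highest and lowest in the left panel are 0.55 for *nop58* and -0.59 for *nol12*.

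Against ‘Uninjected’ cells, none of the 49 genes passed limma's test in ‘Mosaic’, where 1.38% of all genes did, and none in ‘Ubiquitous’, where 0.487% did. At an unadjusted p-value under 0.05 in limma there were 2 genes for ‘Mosaic’ (4.08%, against 11.3% of all genes). For ‘Ubiquitous’ there were 0, against 6.76% of all genes. In voom there were 3 and 2, which are given without a share over all genes and do not set the members apart. The ‘Mosaic’ minus ‘Uninjected’ median was -0.01 (0.02 over all genes), with 24 genes positive. The ‘Ubiquitous’ minus ‘Uninjected’ median was -0.06 (-0.03 over all genes), with 17 positive (34.7%, against 45.0% of all genes). Both ‘Mosaic’ libraries lay above both ‘Uninjected’ libraries for 9 genes (18.4%, against 23.1% of all genes) and below for 11 (22.4%, against 19.9%). Both ‘Ubiquitous’ libraries lay above for 3 (6.12%, against 13.7%) and below for 12 (24.5%, against 19.6%). These 2 comparisons share the ‘Uninjected’ libraries. Neural markers (3 of 6 names had a row) took 0.0161 and 0.0129% of counts in ‘Mosaic’ and 0.011 and 0.0145% in ‘Ubiquitous’ libraries, against 0.0566 and 0.0674% in ‘Uninjected’ libraries. Germ cell markers took at most 0.0223% and yolk syncytial layer markers at most 0.0046% in any library, with *mxtx1* and *apoa4b.1* at 0 throughout. Their part in the differences of the 49 genes was not tested.

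Both ‘Mosaic’ libraries lay above the other 4 for 7 genes (14.3%, against 14.5% of all genes): *imp4*, *nhp2*, *nol11*, *nop58*, *npm1a*, *rrp12* and *utp18*. They lay below for 7 as well (14.3%, against 10.3%): *dkc1*, *gar1*, *nol12*, *nol9*, *nop53*, *rrp9* and *utp15*. The shares are near those of all genes, so the counts do not set ribosome biogenesis genes apart.

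Below the filter on low values, 9 members were left out of the main test: *polr1b*, *polr1d* and *polr1e* among the RNA polymerase I genes, *utp6*, *utp23* and *nop14* among the small subunit genes, *nol8* of the large subunit, and *nol7* and *nopchap1*, which were placed in no role. The most abundant, *polr1b*, had 3 and 8 counts in ‘Mosaic’, against 5 and 1 in ‘Ubiquitous’ and 2 and 11 in ‘Uninjected’ libraries. *nop14* had 1 count in all, in the second ‘Uninjected’ library. With no filter, 0 of the 58 genes passed limma's test in any comparison. Of these 9, *nol7* alone fell under 0.05 before adjustment, for ‘Mosaic’ against each other group. It had 5 and 5 counts in ‘Mosaic’, against 2 and 0 in ‘Ubiquitous’ and 0 and 5 in ‘Uninjected’ libraries. Its counts of 0 fell in the shallow libraries, and its mean rlog was 0.83. This is given without a share over all genes, so it does not set *nol7* apart.

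Among other ribosome biogenesis factors outside the symbol rule, none passed either. Of 109 listed names, including the helicase genes *ddx10* and *ddx21*, the treacle gene *tcof1* and the exosome genes, 102 had a row and 69 were tested. In each of the 3 comparisons, 0 of 69 passed limma's test in either direction. At an unadjusted p-value under 0.05 there were 6 of 69 between ‘Mosaic’ and ‘Ubiquitous’ (8.70%, against 13.0% of all genes), 5 between ‘Mosaic’ and ‘Uninjected’ (7.25%, against 11.3%), and 4 between ‘Ubiquitous’ and ‘Uninjected’ (5.80%, against 6.76%). Their medians were 0.06, -0.02 and -0.08 in the same order of comparisons, beside 0.05, 0.02 and -0.03 over all genes.

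For several members the spread between libraries of 1 group was larger than counting error. The share of *fbl* in the first ‘Mosaic’ library was 2.35 times that in the second (95% exact counting interval 1.95 to 2.84), that of *rrp1* 2.49 times (1.73 to 3.66) and that of *polr1c* 2.19 times (1.58 to 3.08). *nip7*, which acts in 60S assembly, went the other way, with 58 counts in the first and 168 in the second ‘Mosaic’ library, a ratio of 0.382 (0.278 to 0.517). The interval excluded a ratio of 1 for 10 of the 49 genes in ‘Mosaic’, 3 in ‘Ubiquitous’ and 5 in ‘Uninjected’. These counts are given without a share over all genes, so they do not set the members apart. The interval is wider where a library is shallow, as in ‘Ubiquitous’ and ‘Uninjected’, so the counts do not rank the groups by spread. The 2 libraries differed by over 0.5 rlog units for 8 genes in ‘Mosaic’ (16.3%, against 10.6% of all genes), 6 in ‘Ubiquitous’ (12.2%, against 15.7%) and 9 in ‘Uninjected’ (18.4%, against 16.3%).

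**Figure D5:**
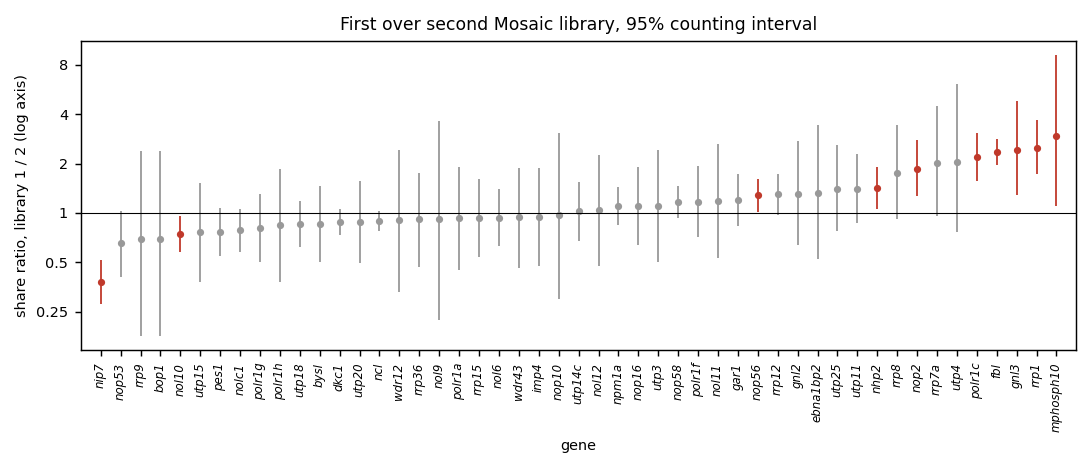
Ratio of each gene's share of counts in the first over the second ‘Mosaic’ library (y axis, log scale) for the 49 genes tested (x axis, ordered by ratio), with 95% exact counting intervals. Red marks the 10 genes whose interval excludes 1, from *nip7* at 0.382 to *mphosph10* at 2.95.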

How the data were processed

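Gene expression was measured by RNA-Seq (CEL-Seq2, which tags each molecule at its 3′ end) in 6 libraries, 2 for each of 3 groups. The authors aligned reads with Bowtie2 (2.3.1) to GRCz10 and counted them with HTSeq (0.6.1), per the labels. The authors then analysed the counts with DESeq2. The deposited values are rlog values on the log2 scale, a step named by the table itself. All 6 columns were used.

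Symbols were looked up by Ensembl identifier, with 26433 of 32266 genes named. The table gives some in capitals (DKC1), written here in lower case. Of 60 rows that match the rule by symbol, 2 (*nol4l* and *nol4la*) were listed at 0 in all libraries and left out.

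Group means were compared with limma (3.58.1, R 4.3.3) on the rlog values over all 6 libraries, with a variance trend, keeping the 3905 genes whose mean rlog reached 2, with Benjamini-Hochberg adjustment over all of them. Counts were inferred in Python (3.11.15, numpy 2.4.6, scipy 1.17.1, pandas 2.3.3) by inverting the transformation. They lay within 0.1 of whole numbers for 98.7% of 14132 genes and for 57 of 58 members, and they are inferred, not the authors' own counts. The inversion and the fit were tested on simulated data. These were drawn from the same model that the inversion assumes, so they could not show whether that model holds for the real libraries. Alternatives were other filters, scalings, variance priors, thresholds and sample sets, a replicate block, voom on inferred counts and each library left out.

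Named are the 5 most positive and 5 most negative differences of each comparison, the 5 most abundant members, *dkc1*, and further tested members of each role. *dkc1* was included because the paper, from the same RNA-Seq, reports it as downregulated in unfit cells, among negative regulators of reactive oxygen species. Here *dkc1* did not pass in ‘Mosaic’ against ‘Ubiquitous’ (adjusted p = 0.299, limma) or ‘Uninjected’ (adjusted p = 0.590, limma). The paper's call came from DESeq2 on counts, and it sought genes changed from ‘Uninjected’ in ‘Mosaic’ but not in ‘Ubiquitous’ cells. The *dkc1* difference from ‘Uninjected’ here, -0.37, had the direction that the paper reports. It comes from the same libraries, so the shared direction adds no support. The -0.58 is the difference from ‘Ubiquitous’, which is a different comparison. In voom on inferred counts *dkc1* did not pass either, against ‘Ubiquitous’ (adjusted p = 0.206, voom) or ‘Uninjected’ (adjusted p = 0.497, voom). Limma on rlog values and voom are different tests from DESeq2, so not passing here does not contradict that call. The members and lists were chosen with earlier results of these data known. No sequences are given.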

Additional observations from a re-analysis of the deposited data

How the results depend on the processing

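In all 16 planned settings, main included, no gene of the 49 passed in any comparison, with a lowest adjusted p of 0.11 (limma). Without the 2 shallow libraries, a setting chosen after seeing the data, 1 ‘Ubiquitous’ and 1 ‘Uninjected’ library remained, so differences alone are given. The medians there were 0.0287 (‘Mosaic’ minus ‘Ubiquitous’), -0.0946 (‘Mosaic’ minus ‘Uninjected’) and -0.1657 (‘Ubiquitous’ minus ‘Uninjected’). In that setting the *gnl3* difference of ‘Ubiquitous’ from ‘Uninjected’ was -0.3221. With voom, the medians against ‘Uninjected’ were -0.1146 (‘Mosaic’) and -0.1449 (‘Ubiquitous’). As each library was left out, the medians ranged from 0.0026 to 0.2167 between ‘Mosaic’ and ‘Ubiquitous’, from -0.0946 to 0.1294 between ‘Mosaic’ and ‘Uninjected’, and from -0.1669 to -0.0201 between ‘Ubiquitous’ and ‘Uninjected’. The difference from ‘Uninjected’ ranged from -0.9108 to 0.0392 for *rrp1* in ‘Mosaic’, and in ‘Ubiquitous’ from -0.047 to 0.7874 for *gnl3*, -0.0095 to 0.359 for *nolc1*, -1.1674 to 0.0274 for *nop2* and -0.9828 to 0.1131 for *rrp15*. The causes of these shifts were not tested. Of 522 alternative values of the 31 most positive, most negative and *dkc1* differences, 6 reversed direction, in 5 of the differences. Apart from *dkc1*, these were picked as extremes of the same data. Several settings change only the spread and cannot move a difference, so the count is no measure of stability. Of all 147 differences of the 49 genes, 72 took both signs as single libraries were left out (18, 24 and 30 in the 3 comparisons). This is given without a share over all genes, so it does not set the members apart. Same-numbered lots did not deviate together (r = -0.06, -0.12 and -0.04 across 3905 genes, which are not independent replicates), so they were treated as unpaired. With a shallow library in both ‘Ubiquitous’ and ‘Uninjected’, such r values cannot show whether same-numbered lots shared a preparation. With a replicate block 0 members passed. Each group held both lots, so the block could change the spread but not any group difference or median. With the ‘Mosaic’ lots crossed, added after seeing the data, 0 passed. With no filter 0, 6 and 7 of all genes passed in the 3 comparisons, against 52, 54 and 19. In the shallowest library a count of 0 allows a share of up to 0.00869% of counts.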
